A study of Homo sapiens with 42 samples.

Results

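The cadherin superfamily was followed in 5 human cell lines of B-lineage acute lymphoblastic leukaemia whose level of the histone methyltransferase NSD2 had been raised or lowered. Members were chosen by gene symbol alone: CDH genes, PCDH genes, the desmocollins (DSC) and desmogleins (DSG), FAT, DCHS and CELSR genes, with Y-linked members left out. The rule found 109 genes of 57792 named in the tables. Genes of the A and G clusters of protocadherins share exons, and the B genes are close copies. The 57 clustered protocadherins were therefore summed to 1 feature for each of the A (16 genes), B (19 genes) and G (22 genes) clusters. This left 55 features: 23 CDH genes, 7 desmosomal genes, 6 FAT and DCHS genes, 3 CELSR genes, 13 single protocadherins and the 3 clusters. In the lines Reh and 697 the arms were an empty vector (EV), overexpressed wild-type NSD2 (WT) and overexpressed mutant NSD2, which the labels call EK, with 2 libraries per arm in Reh and 3 in 697. RS411 (RS4;11), RCH (RCH-ACV) and SEM cells carried a non-targeting control (NT), the NSD2 short hairpin sh2, or sh5, a second hairpin arm that only the sample titles name, with 3 libraries per arm. Each arm is 1 engineered version of 1 line, and nothing in the labels says that its replicates were grown apart. The p-values therefore rest on the spread among these libraries, which may be technical. Within a line the 2 comparisons against EV or NT share their control libraries.

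Cadherins are cell-surface proteins built from repeated extracellular domains that bind calcium. Classical cadherins join neighbouring cells and are linked to actin by catenins, and desmocollins with desmogleins form the adhesive core of desmosomes, which are anchored to intermediate filaments. FAT and DCHS proteins are very large cadherins that bind each other across cell contacts and act in planar polarity and Hippo signalling, and CELSR proteins are adhesion receptors of the planar polarity pathway. Most protocadherins are best known from neurons, where the A, B and G clusters give single cells their own surface identity. Leukaemic B-cell precursors do not form epithelial junctions. NSD2 adds methyl groups to lysine 36 of histone H3.

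Total reads per library assigned to named genes ran from 23688484 to 27244032 in Reh, 40664735 to 57179806 in 697, 27767490 to 67651596 in RS411, 21876505 to 54879264 in RCH and 32508206 to 39468598 in SEM. NSD2, listed as WHSC1, checked the labels. In log2 fold change (log2FC, with its SE) it was higher by 1.55 ± 0.12 in Reh WT and 1.54 ± 0.12 in Reh EK, and by 3.26 ± 0.19 and 3.14 ± 0.19 in 697 WT and EK, all called. In SEM it fell by 0.99 in sh2 and by 1.28 in sh5. In RS411 (-0.71 in sh2 and -0.83 in sh5) and RCH (-0.77 and -0.80) every hairpin library lay below every NT library, but the adjusted p was 0.118, 0.165, 0.0951 and 0.503 (edgeR quasi-likelihood), so the knockdown itself was not called there. The summed level of 9 B-lymphoid markers was at least 1260 CPM (read counts scaled to library size) in every library of Reh, RS411, RCH and SEM, and the 6 epithelial markers together stayed at or under 0.269 CPM there.

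In control cells the lines used different cadherins. In bulk RNA, fewer cells that express a gene and less RNA per cell cannot be told apart. Levels between genes are compared per kilobase of exon (kb), as means ± SD of the EV or NT libraries. Reh was led by PCDH18, a protocadherin outside the clusters, at 16.2 ± 0.409 CPM per kb (n = 2), followed by the desmoglein DSG2 at 14.1 ± 0.425 and the desmocollin DSC3 at 10.1 ± 0.639. In 697 the giant cadherin FAT1 stood at 2850 ± 253 normalized counts per kb (n = 3), with N-cadherin (CDH2) next at 601 ± 75.0 and PCDH9 after it at 314 ± 121. RCH showed the same leading pair, FAT1 at 46.4 ± 7.46 CPM per kb and CDH2 at 11.7 ± 1.39, then DSG2 at 7.12 ± 0.749. SEM was led by DSG2 at 14.7 ± 1.06 and CDH2 at 12.6 ± 0.638, whose libraries did not overlap, and CDH24, a classical type II cadherin, followed at 5.99 ± 0.256. RS411 held the fewest cadherin transcripts, with CDH24 at 7.02 ± 1.10 CPM per kb, CELSR2 at 4.04 ± 0.286 and then a step down to PCDH18 at 0.482 ± 0.0640. These ranks leave out the 3 clusters, whose summed genes have no single length.

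Several members were at or near 0. E-cadherin (CDH1), the main cadherin of epithelia, had between 7 reads in all SEM libraries together and 36 in all Reh libraries. CDH2 had 3 reads in all of Reh and 16 in all of RS411, against 24047 in 697, 11740 in RCH and 10792 in SEM. FAT1 had 435390 reads in 697 and 228457 in RCH, but 54 in Reh, 75 in SEM and 110 in RS411. DSC3 had 6370 reads in Reh and at most 6 in any other line. No read was found in any library for 3 of the 55 features in Reh, 1 in 697, 5 in RS411, 6 in RCH and 6 in SEM. Features with enough reads to be tested numbered 25 in Reh, 25 in 697, 15 in RS411, 23 in RCH and 21 in SEM. A gene expressed in 1 arm alone can pass that filter through that arm, and can then be called only as higher there. This holds for CDH6 in SEM sh5 and for PCDH9 and PCDH10 in RS411 sh5.

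Called members, at an adjusted p under 0.05 over all genes tested in the comparison, numbered at most 2 outside SEM in the comparisons against EV or NT as fitted by arm. In Reh, 1 member was called higher and 1 lower of 25 tested in WT, where 0.219% of all genes were called, 0.188% higher and 0.0313% lower. In EK the members called were again 1 and 1, beside 0.213% of all genes, 0.176% higher and 0.0376% lower. At an unadjusted p under 0.05 Reh had 10 members in WT and 11 in EK, beside 791 and 982 of 15950 genes tested. These Reh counts depended on the fit. Below, a Reh gene given as not called was not called by edgeR fitted by arm with its low-count filter, unless another fit is named. With no filter on low counts edgeR called 6 members in WT and 8 in EK, and with a block for replicate number more still in each. DESeq2 called 5 in EK, and with 1 library left out edgeR called 0 or 1 in either arm. For the alternative fits given here and below, the share of all genes called was not counted, so their member counts have no background. In 697, limma called 1 of 25 members higher in WT (0.178% of all genes called, all of them higher) and 1 in EK (0.166% of all genes, 0.16% higher and 0.00614% lower). At an unadjusted p under 0.05 there were 4 members in WT and 5 in EK, beside 466 and 796 of 16292 genes tested. In RS411, edgeR called 0 of 15 in sh2, where 1.67% of all genes were called (0.945% higher, 0.723% lower). There 4 members had an unadjusted p under 0.05, beside 3122 of 17147 genes tested. In sh5 it called 1 higher, against 0.478% of all genes (0.461% higher, 0.0175% lower). With a block for replicate number, since same-numbered RS411 libraries deviated together, the counts rose to 3 in sh2 (2 higher, 1 lower) and 3 in sh5 (2 higher, 1 lower), and DESeq2 called 1 in sh2 and 2 in sh5. In RCH, 1 of 23 was called lower in sh2 (1.37% of all genes called, 1.17% higher and 0.195% lower), and edgeR called 0 in sh5 (0.0229%). In RCH sh5, 4 members had an unadjusted p under 0.05, beside 705 of 17458 genes tested, and DESeq2 called 1 member. In SEM, 3 members were called higher and 9 lower of 21 tested in sh2, where 28% of all genes were called, and 1 higher and 10 lower in sh5, where 21.3% were. The median log2FC of the 21 SEM members was -0.527 in sh2 and -0.596 in sh5, beside 0.006 and -0.007 over all genes tested. Of all SEM genes tested, 13.5% were called higher and 14.5% lower in sh2, and 11.1% higher and 10.2% lower in sh5.

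**Figure D1:**
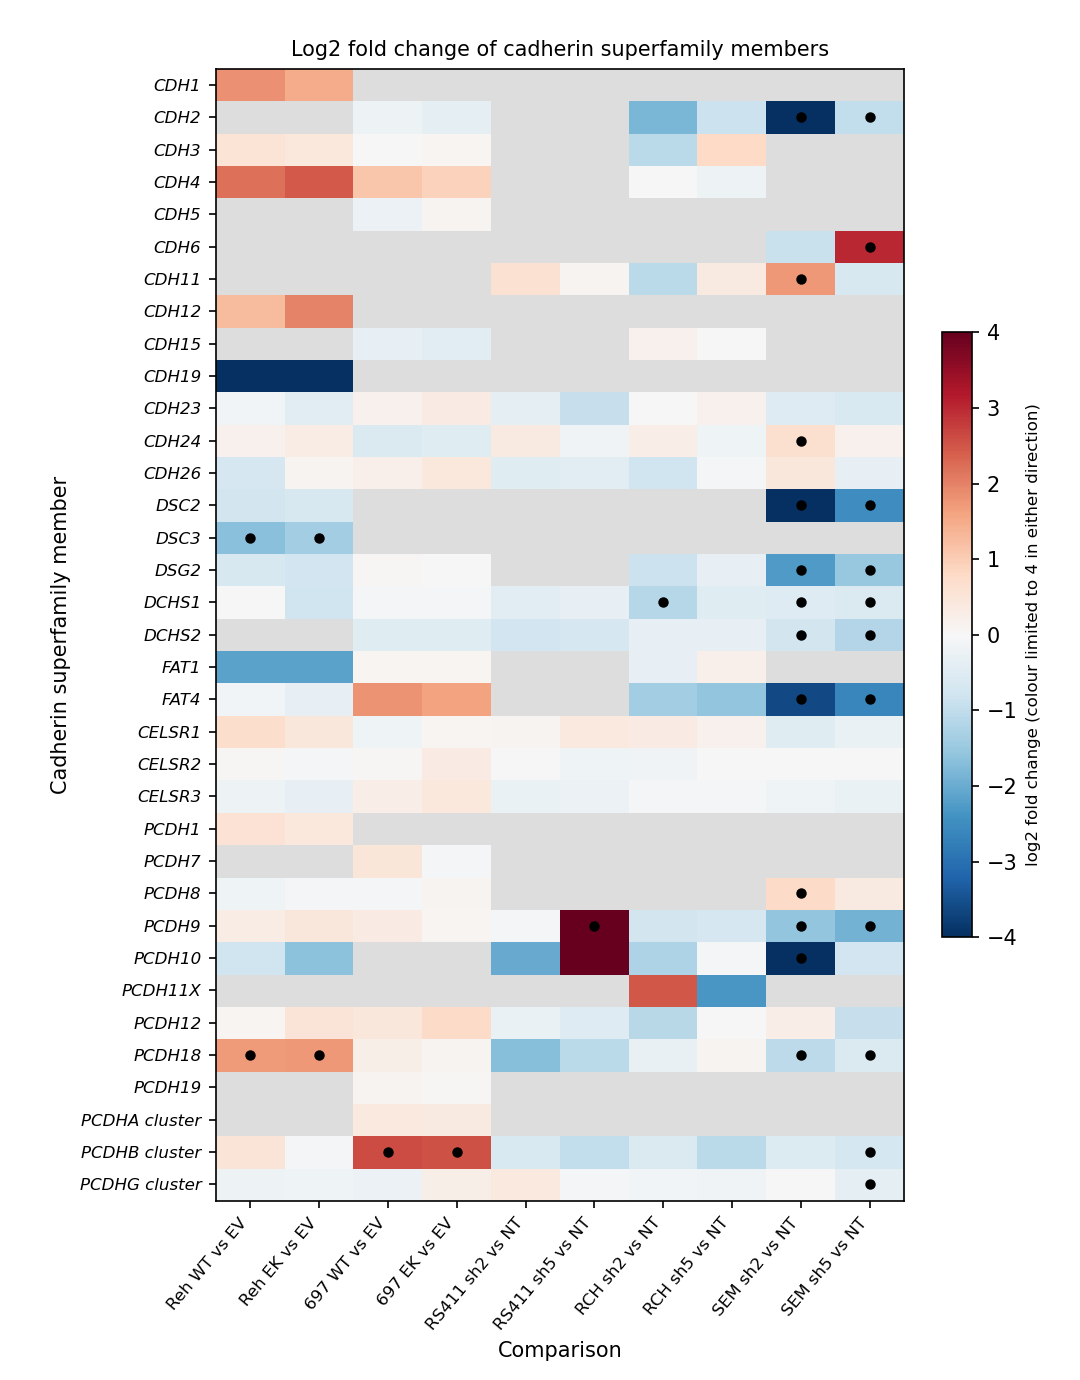
Log2 fold change of each tested cadherin superfamily feature (rows) in the 10 comparisons against EV or NT (columns), red higher and blue lower, with colours limited at 4 in either direction, grey where a feature was not tested, and a black dot where it was called. Dots fill the 2 SEM columns (12 in sh2 and 11 in sh5) and number at most 2 in any other column.

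Mutant and wild-type NSD2 were also compared with each other. In EK against WT, 0 of 25 members were called in Reh by edgeR (0% of all genes called) and 0 by DESeq2. At an unadjusted p under 0.05 there were 3 members, beside 259 of 15950 genes tested. With no filter on low counts edgeR called DCHS1 lower in EK there (-0.79 ± 0.18, adjusted p = 0.0251). In 697, limma called 0 of 25 in the same contrast (0% of all genes called), as did edgeR on recovered reads. At an unadjusted p under 0.05 there were 0 members, beside 117 of 16292 genes tested. The 2 hairpins differed most in SEM, where 5 members were higher and 4 lower in sh5 than in sh2, with 12.4% of all genes called (8.03% higher, 4.33% lower). In RS411, 2 were higher in sh5 (0.577% of all genes, 0.408% higher and 0.169% lower). In RCH edgeR called 0 (0% of all genes) and DESeq2 called 1, with 6 members at an unadjusted p under 0.05, beside 1714 of 17458 genes tested.

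Among the classical cadherins, CDH2 had the largest called change. N-cadherin is the adhesion molecule of neural, mesenchymal and some haematopoietic cells. In SEM its levels were 63.2, 59.0 and 65.2 CPM in the NT libraries, 4.17, 3.29 and 3.20 in sh2, and 31.4, 32.6 and 31.0 in sh5. The 3 arms did not overlap, with sh2 at the bottom and sh5 midway. The log2FC was -4.13 ± 0.10 in sh2 (edgeR, adjusted p = 9.12e-13) and -0.98 ± 0.08 in sh5 (edgeR, adjusted p = 5.28e-07), and sh5 stood above sh2 by 3.15 ± 0.10 (edgeR, adjusted p = 5.13e-11). NSD2 itself was lower in sh5 than in sh2 in these cells, at 132.3 to 146.3 against 166.0 to 179.2 CPM, so the arm with less NSD2 kept more CDH2. In RCH the CDH2 levels were 50.8, 64.5 and 58.9 CPM in NT, 2.38, 16.1 and 30.5 in sh2, and 24.2, 32.8 and 38.2 in sh5. Every hairpin library lay below every NT library, yet the sh2 libraries spread so widely that neither hairpin was called (-1.82 ± 0.62, edgeR adjusted p = 0.174, and -0.87 ± 0.60, edgeR adjusted p = 1). In 697, CDH2 stood at 3324, 3021 and 2585 normalized counts in EV, 2782, 2597 and 2429 in WT, and 2140, 2409 and 2308 in EK. EK lay below every EV library by 0.38 ± 0.12 on the log2 scale, which was not called (limma, adjusted p = 0.802).

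The spread within RCH sh2 ran through several members and through NSD2. NSD2 was at 141.7, 205.0 and 251.4 CPM in sh2 libraries 1, 2 and 3, against 326.7 to 351.7 in NT and 151.1, 226.3 and 208.6 in sh5. In the same order DSG2 stood at 11.0, 24 and 37.6 CPM in sh2, below NT at 48.3, 44.9 and 39.1. P-cadherin (CDH3), a classical cadherin of basal epithelia, stood at 1.36, 6.16 and 11.1 CPM in sh2, 11.3, 12.6 and 15.8 in NT, and 15.4, 19.7 and 34.3 in sh5. The sh2 library with the least NSD2 thus had the least CDH2, DSG2 and CDH3. In sh5, library 1 had the least NSD2 (151.1 CPM) and again the least CDH2 and CDH3, but the most DSG2 (39.1 CPM). None of the 3 genes was called in RCH, and with 3 libraries per arm no relation was tested.

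**Figure D2:**
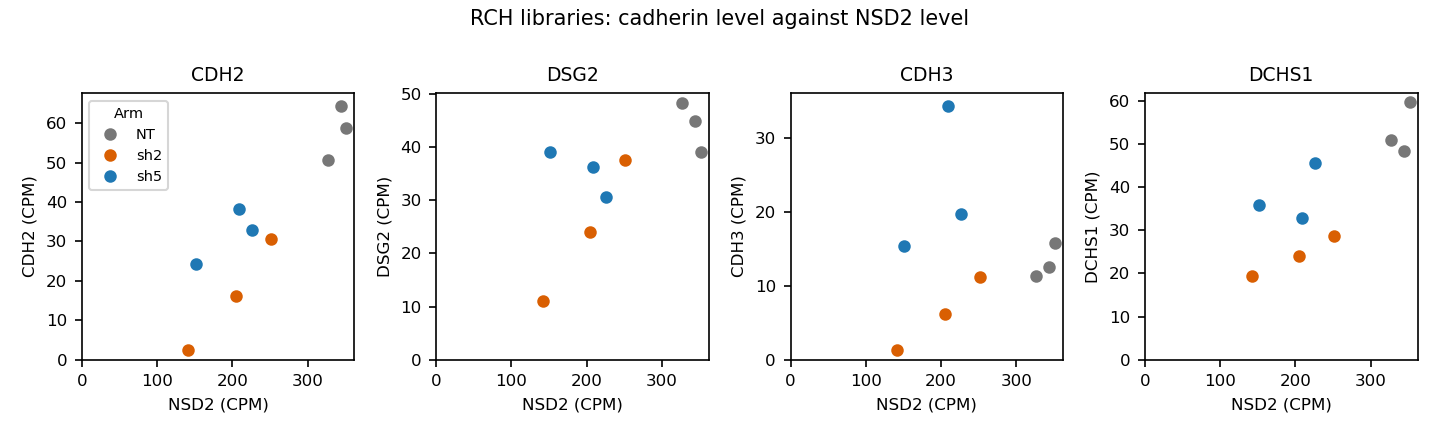
Levels of CDH2, DSG2, CDH3 and DCHS1 (vertical axes, CPM) against NSD2 (horizontal axes, CPM) in the 9 RCH libraries, grey for NT, orange for sh2 and blue for sh5, 1 point per library. The orange points step up with NSD2 from 141.7 to 251.4 CPM in all 4 panels, while the blue points of CDH3 lie between 15.4 and 34.3 CPM and the NT points between 11.3 and 15.8 CPM.

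Type II and other CDH genes moved less or at low levels. CDH24 in SEM was 21.4, 23.1 and 22.9 CPM in NT and 34.8, 34.6 and 35.3 in sh2, with no overlap, a rise of 0.64 ± 0.08 (edgeR, adjusted p = 3.18e-05), and 23.1, 24.5 and 29 in sh5, which overlapped NT (0.18 ± 0.08, edgeR adjusted p = 0.138). With the replicate block, edgeR also called sh5 higher (adjusted p = 0.0461). In RS411 the CDH24 levels were 23.9, 31.1 and 24 CPM in NT and 34.5, 39.6 and 27.2 in sh2. That difference was called with the replicate block (0.36 ± 0.08, adjusted p = 0.00601) and not without it (edgeR, adjusted p = 0.209). CDH11, a mesenchymal cadherin, was 0.928, 0.779 and 1.17 CPM in SEM NT, 1.15, 3.79 and 4.62 in sh2, and 0.448, 0.802 and 0.608 in sh5. It was called higher in sh2 (1.72 ± 0.45, edgeR adjusted p = 0.0158) although library 1 of sh2 overlapped NT. The edgeR call was lost without NT library 1 (adjusted p = 0.0664), NT library 2 (0.0756) or sh2 library 2 (0.0522). CDH6 was called higher in SEM sh5 by 3.01 ± 0.67 (edgeR, adjusted p = 0.00448) on 13, 12 and 11 reads, against 1, 3 and 0 in NT. It was tested through its sh5 libraries alone, so only a rise there could have been called. CDH6 is the 1 member counted as higher in SEM sh5.

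Low-level CDH genes of the overexpression lines did not pass the threshold over all genes in the filtered fits by arm. CDH4 (R-cadherin), known from retina and brain, was 0.113 and 0.292 CPM in Reh EV, 0.922 and 0.966 in WT, and 0.971 and 1.27 in EK (WT 2.19 ± 0.48 and EK 2.44 ± 0.47, edgeR adjusted p = 0.284 and 0.177). In 697 it was 16.9, 15.1 and 8.37 normalized counts in EV, 30.5, 29 and 27.4 in WT, and 25.2, 30.9 and 20.5 in EK (WT 1.10 ± 0.33 and EK 0.91 ± 0.33, limma adjusted p = 0.844 and 0.905). CDH4 was therefore above every EV library in both overexpression lines without being called in either by these fits. In Reh, CDH12 was 0.225 and 0.328 CPM in EV, 0.664 and 0.672 in WT, and 1.44 and 0.800 in EK (EK 1.98 ± 0.45, edgeR adjusted p = 0.252). CDH19 had 29 reads in Reh EV, 1 in WT and 1 in EK, and was not called (edgeR, adjusted p = 0.246 and 0.2).

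Of the 7 desmosomal cadherins, DSG2 and DSC2 fell in SEM and DSC3 fell in Reh. In SEM the 5 besides DSG2 and DSC2 had at most 2 reads each in all libraries together. DSG2, a desmoglein also made outside desmosomes, was 84.5, 90.4 and 97.6 CPM in SEM NT, 20.3, 18.4 and 17.2 in sh2, and 28.9, 31.1 and 35.8 in sh5. The 3 arms did not overlap. DSG2 fell by 2.28 in sh2 (SE 0.09, edgeR adjusted p = 1.20e-10) and by 1.51 in sh5 (SE 0.09, edgeR adjusted p = 2.23e-08). Its partner DSC2, which pairs with desmogleins, was 3.54, 2.58 and 3.84 CPM in SEM NT, with 362 reads, but 0.0256, 0.0627 and 0.0262 CPM in sh2, with 4 reads, and 0.474, 0.695 and 0.608 in sh5. DSC2 fell by 6.37 in sh2 (SE 0.38, edgeR adjusted p = 7.04e-09) and by 2.48 in sh5 (SE 0.24, edgeR adjusted p = 2.73e-06), and its level in sh5 was above that in sh2 (edgeR, adjusted p = 3.92e-05).

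In Reh, where NSD2 was added and not removed, DSC3 fell. It was 74.3 and 67.9 CPM in EV, 22.7 and 21.8 in WT, and 28.4 and 26.4 in EK, with no overlap between EV and the others (-1.68 ± 0.11 and -1.38 ± 0.11, edgeR adjusted p = 0.00777 and 0.0169). The desmosomal genes DSG2 and DSC2 lay lower in the same libraries without being called by edgeR as fitted by arm with its low-count filter. DSG2 was 85.2 and 88.9 CPM in EV, 56.1 and 54.7 in WT, and 50.2 and 52.1 in EK (-0.65 ± 0.10 and -0.77 ± 0.10, edgeR adjusted p = 0.105 and 0.0537). DSC2 was 11.3 and 10.8 CPM in EV, 6.64 and 6.76 in WT, and 7.52 and 6.76 in EK (-0.72 ± 0.16 and -0.63 ± 0.16, edgeR adjusted p = 0.284 and 0.3). DSG2 was called lower by DESeq2 in both arms (adjusted p = 0.000468 and 7.82e-06). With 2 libraries per arm, DSC3 did not keep its call when a library was dropped, with the single exception of WT without EV library 2 (edgeR, adjusted p = 0.0459). In WT the edgeR adjusted p was 0.0638 without EV library 1, 0.0771 without WT library 1 and 0.0791 without WT library 2, and in EK it was 0.148, 0.0919, 0.121 and 0.117 without EV 1, EV 2, EK 1 and EK 2, while the log2FC stayed between -1.74 and -1.61 in WT and between -1.44 and -1.31 in EK.

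In 697, DSG2 overlapped between all arms, at 1374 to 1809 normalized counts in EV, 1379 to 1834 in WT and 1398 to 1927 in EK. RS411 had 13 DSG2 reads in all 9 libraries together.

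CDH2 and the desmosomal cadherins lie on chromosome 18, in the order CDH2, DSC3, DSC2, DSC1, DSG1, DSG4, DSG3 and DSG2. The promoters of the 4 that carry the results above are shown because they share this chromosome and because CDH2, DSC2 and DSG2 fell together in SEM while DSC3 fell in Reh. They are not all adjacent, since DSC1, DSG1, DSG4 and DSG3 lie between DSC2 and DSG2. Sequences are from RefSeq (GRCh38.p14), 250 bases before to 50 after the gene's start, read on the gene's strand: CDH2 at chr18:28177081-28177380 (minus), DSC3 at chr18:31042693-31042992 (minus), DSC2 at chr18:31102372-31102671 (minus) and DSG2 at chr18:31497927-31498226 (plus). Capitals mark CAGGTG or its reverse complement CACCTG, the E-box bound by ZEB and SNAI repressors of cadherin genes, searched on both strands as these 2 words.
CDH2: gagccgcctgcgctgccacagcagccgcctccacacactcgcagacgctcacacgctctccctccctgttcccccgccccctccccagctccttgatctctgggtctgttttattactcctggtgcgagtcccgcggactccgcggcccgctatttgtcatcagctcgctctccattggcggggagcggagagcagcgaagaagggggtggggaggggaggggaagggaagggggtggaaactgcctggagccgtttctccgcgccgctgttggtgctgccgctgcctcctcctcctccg
DSC3: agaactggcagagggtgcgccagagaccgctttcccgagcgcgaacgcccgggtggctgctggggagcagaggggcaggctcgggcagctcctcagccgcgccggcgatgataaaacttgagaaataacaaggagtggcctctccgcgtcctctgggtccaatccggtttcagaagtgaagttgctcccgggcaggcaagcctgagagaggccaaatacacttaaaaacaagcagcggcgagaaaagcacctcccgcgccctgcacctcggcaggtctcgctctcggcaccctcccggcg
DSC2: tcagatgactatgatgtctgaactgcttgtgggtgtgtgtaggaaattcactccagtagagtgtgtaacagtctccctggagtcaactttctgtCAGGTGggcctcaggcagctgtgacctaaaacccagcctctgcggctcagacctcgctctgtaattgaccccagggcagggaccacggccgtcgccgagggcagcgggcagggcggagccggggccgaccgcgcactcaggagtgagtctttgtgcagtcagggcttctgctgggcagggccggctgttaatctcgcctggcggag
DSG2: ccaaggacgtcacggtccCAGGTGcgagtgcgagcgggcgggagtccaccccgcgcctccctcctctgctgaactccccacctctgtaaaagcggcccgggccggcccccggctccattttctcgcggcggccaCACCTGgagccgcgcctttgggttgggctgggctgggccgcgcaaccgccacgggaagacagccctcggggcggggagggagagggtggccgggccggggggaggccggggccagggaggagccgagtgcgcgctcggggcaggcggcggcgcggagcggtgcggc
DSG2 held 2 matches and DSC2 held 1, while CDH2 and DSC3 held 0. One of the words occurred in 20.6% of 27305 RefSeq promoters of this length, and in 10 of 79 member promoters (12.7%). These 79, of 109 member genes, count the clustered protocadherins as single genes, which make up most of them. Members with no promoter in the set, such as CDH1, are left out. A match is a description of letters, not of a bound site. CG dinucleotides numbered 36 in DSG2, 25 in DSC3, 23 in CDH2 and 15 in DSC2, against a median of 14 over all promoters and 8 over the same 79 member promoters, mostly of the clusters.

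ZEB1, one of those repressors, was on a list of 9 E-cadherin repressors, of which 7 were tested in SEM. In sh2, 1 of the 7 rose and 3 fell, where 28% of all genes were called, and in sh5, 3 rose and 1 fell, where 21.3% were. ZEB1 was 14.6 ± 0.517 CPM in SEM NT, 1.51 ± 0.196 in sh2 and 6.31 ± 0.744 in sh5 (n = 3), a fall of 3.27 in sh2 (edgeR, adjusted p = 2.02e-10) and of 1.21 in sh5 (edgeR, adjusted p = 3.22e-06). TCF4 fell by 2.36 in sh2 (edgeR, adjusted p = 1.65e-08) and rose by 1.11 in sh5 (edgeR, adjusted p = 1.23e-05). ZEB2, the more abundant of the ZEB genes, rose from 151 ± 20.6 CPM in NT to 214 ± 11 in sh2 and 192 ± 5.91 in sh5 (edgeR, adjusted p = 0.000334 and 0.00806), and SNAI3 rose in sh5 from 2.75 ± 0.317 to 4.31 ± 1.04 CPM (edgeR, adjusted p = 0.0245). The ZEB genes thus moved in opposite directions in the libraries where DSG2 and DSC2 fell, and their part in that was not tested. CDH1, the best-known target of these repressors, stayed near 0.

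**Figure D3:**
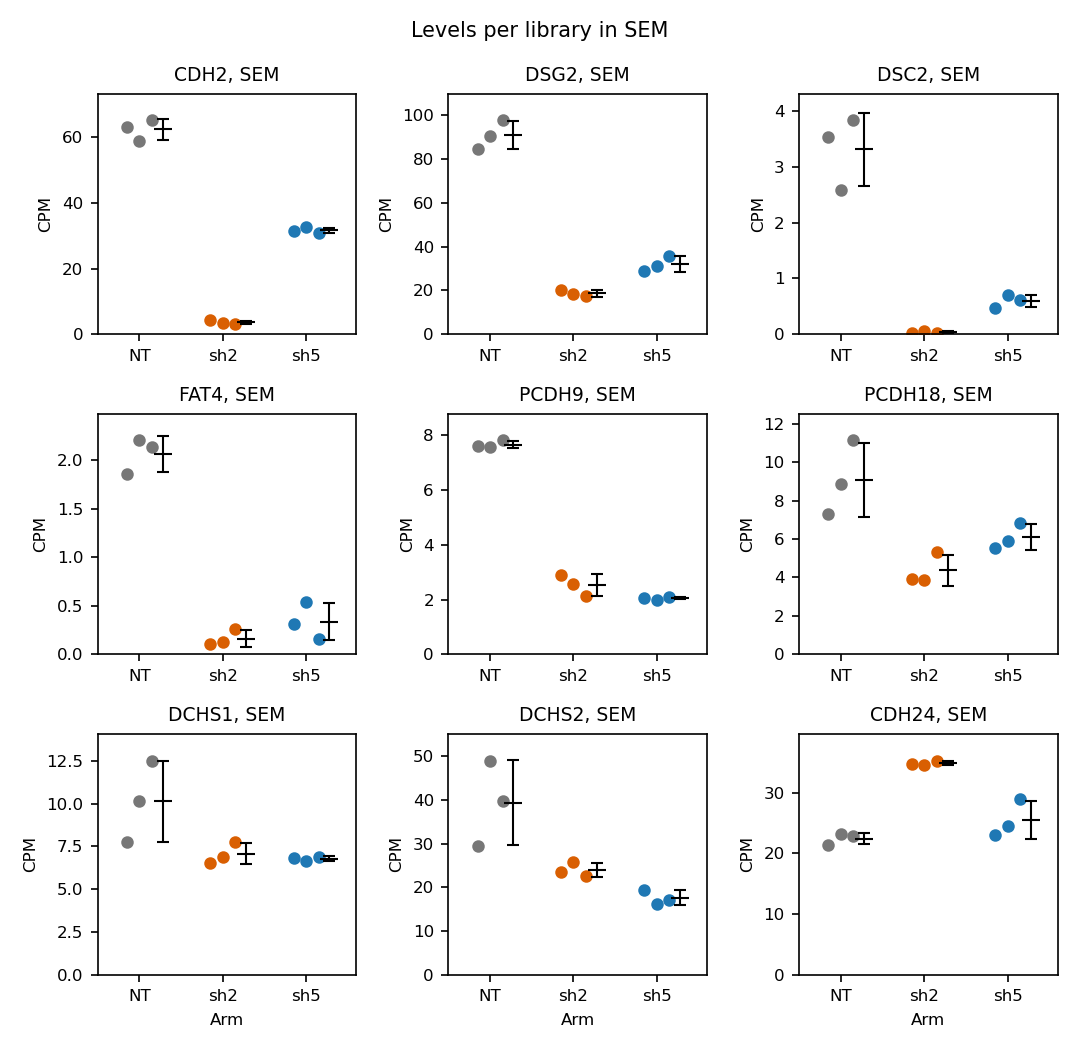
Level of 9 cadherin superfamily genes in the SEM libraries (CPM, vertical axes from 0) by arm, 1 point per library (n = 3), with mean and SD as a black bar beside each arm. CDH2, DSG2, DSC2, FAT4 and PCDH9 have every hairpin library below every NT library, and CDH24 is higher in sh2, at 34.6 to 35.3 CPM against 21.4 to 23.1.

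Among FAT and DCHS genes, FAT4 fell in SEM and both DCHS genes fell with it. FAT4, a receptor-like cadherin that binds DCHS1, was 1.86, 2.20 and 2.13 CPM in SEM NT, 0.102, 0.125 and 0.262 in sh2, and 0.316, 0.535 and 0.159 in sh5. It fell by 3.62 in sh2 (SE 0.38, edgeR adjusted p = 3.59e-06) and by 2.61 in sh5 (SE 0.34, edgeR adjusted p = 5.09e-05). DCHS1 was 7.78, 10.1 and 12.5 CPM in NT, 6.55, 6.90 and 7.74 in sh2, and 6.80, 6.66 and 6.90 in sh5, with all hairpin libraries just under the lowest NT library. The differences of -0.52 ± 0.15 and -0.58 ± 0.15 (edgeR, adjusted p = 0.0137 and 0.00956) were not called without NT library 3, the highest (adjusted p = 0.0901 and 0.0605). DCHS2, a related giant cadherin, was 29.6, 49.0 and 39.7 CPM in NT, 23.5, 25.8 and 22.6 in sh2, and 19.5, 16.2 and 17.1 in sh5 (-0.72 ± 0.16 and -1.16 ± 0.16, edgeR adjusted p = 0.0056 and 0.000411).

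DCHS1 was also the 1 member called in RCH. Its levels were 51.0, 48.4 and 59.8 CPM in NT, 19.4, 24 and 28.6 in sh2, and 35.8, 45.7 and 32.9 in sh5. The arms were separate, with sh2 lowest, and DCHS1 fell by 1.14 in sh2 (SE 0.18, edgeR adjusted p = 0.0159), while sh5 was not called (-0.48 ± 0.18, edgeR adjusted p = 1). Dropping NT library 2 or 3, or sh2 library 1 or 2, ended the edgeR call (adjusted p = 0.0782, 0.104, 0.0579 and 0.0719), with log2FC from -1.20 to -1. In Reh, DCHS1 was 25.6 and 26.9 CPM in EV, 26.0 and 26.5 in WT, and 12.1 and 18 in EK (-0.80 ± 0.20, edgeR adjusted p = 0.29), below both other arms without being called.

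FAT4 in 697 was at a very low level. It stood at 4.46, 3.01 and 4.19 normalized counts in EV, 18.3, 19.0 and 11.3 in WT, and 12.1, 14.4 and 14.8 in EK, with no overlap with EV. The 12 EV reads in all and differences of 1.80 ± 0.36 and 1.61 ± 0.36 were not called (limma, adjusted p = 0.157 and 0.283). FAT1, the most abundant member of 697, was 41398 to 48913 normalized counts in EV, 43343 to 52176 in WT and 42814 to 52939 in EK, so the arms overlapped. In RCH it was 691, 671 and 889 CPM in NT, 533, 621 and 623 in sh2, and 797, 966 and 811 in sh5 (-0.34 ± 0.15 in sh2, edgeR adjusted p = 0.245). In Reh, FAT1 had 38 reads in EV, 8 in WT and 8 in EK (-2.13 ± 0.45 and -2.14 ± 0.45, edgeR adjusted p = 0.268 and 0.203).

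The CELSR genes gave no call in the fits by arm. CELSR2, a receptor of the planar polarity pathway, was 41.4 to 48.3 CPM in SEM NT, 40.6 to 48.6 in sh2 and 43.4 to 47.1 in sh5. Its log2FC against NT was -0.02 ± 0.08 and 0.01 ± 0.08 there, while 4760 of 17030 genes were called in sh2. CELSR1 had larger uncalled differences, such as 0.70 ± 0.45 in Reh WT and -0.50 ± 0.35 in SEM sh2. None of the 3 CELSR genes was called in any of the 10 comparisons against EV or NT by edgeR or limma. With the replicate block edgeR called CELSR3 lower in SEM sh5 (-0.28 ± 0.08, adjusted p = 0.00998).

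Single protocadherins gave changes in opposite directions between lines. PCDH18 was the highest member of Reh at 106 and 110 CPM in EV, 343 and 362 in WT, and 384 and 328 in EK. The EV libraries were far below the rest, and PCDH18 rose by 1.71 ± 0.12 in WT and 1.72 ± 0.12 in EK (edgeR, adjusted p = 0.00777 and 0.0109). Leaving out 1 library gave log2FC from 1.66 to 1.74 in WT and 1.60 to 1.84 in EK. The edgeR call held without WT library 1 (adjusted p = 0.0461) and EK library 1 (0.0470), and was lost in WT without EV 1 (0.0859), EV 2 (0.0680) or WT 2 (0.0751) and in EK without EV 1 (0.0985), EV 2 (0.0918) or EK 2 (0.0526). In 697, PCDH18 overlapped between arms, at 1435 to 1679 normalized counts in EV, 1480 to 2115 in WT and 1428 to 2160 in EK.

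With less NSD2, PCDH18 stood lower in 2 of the 3 knockdown lines. In SEM it was 7.28, 8.84 and 11.1 CPM in NT, 3.91, 3.89 and 5.30 in sh2, and 5.53, 5.91 and 6.85 in sh5, with every hairpin library below NT (-1.06 ± 0.17, edgeR adjusted p = 0.000208, and -0.58 ± 0.16, edgeR adjusted p = 0.0196). The sh5 call of edgeR was lost without NT library 3 (adjusted p = 0.116), sh5 library 1 (0.0798) or sh5 library 2 (0.0731). In RS411 the levels were 3.72, 2.94 and 3.02 CPM in NT, 0.628, 0.285 and 2.06 in sh2, and 1.24, 1.16 and 2.13 in sh5. These were again all below NT, called lower in sh2 with the replicate block (-1.92 ± 0.44, adjusted p = 0.0277) and not without it (-1.70 ± 0.54, edgeR adjusted p = 0.144). In RCH the arms overlapped, at 30.6 to 40.7 CPM in NT, 19.5 to 37.8 in sh2 and 36.0 to 37.3 in sh5.

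**Figure D4:**
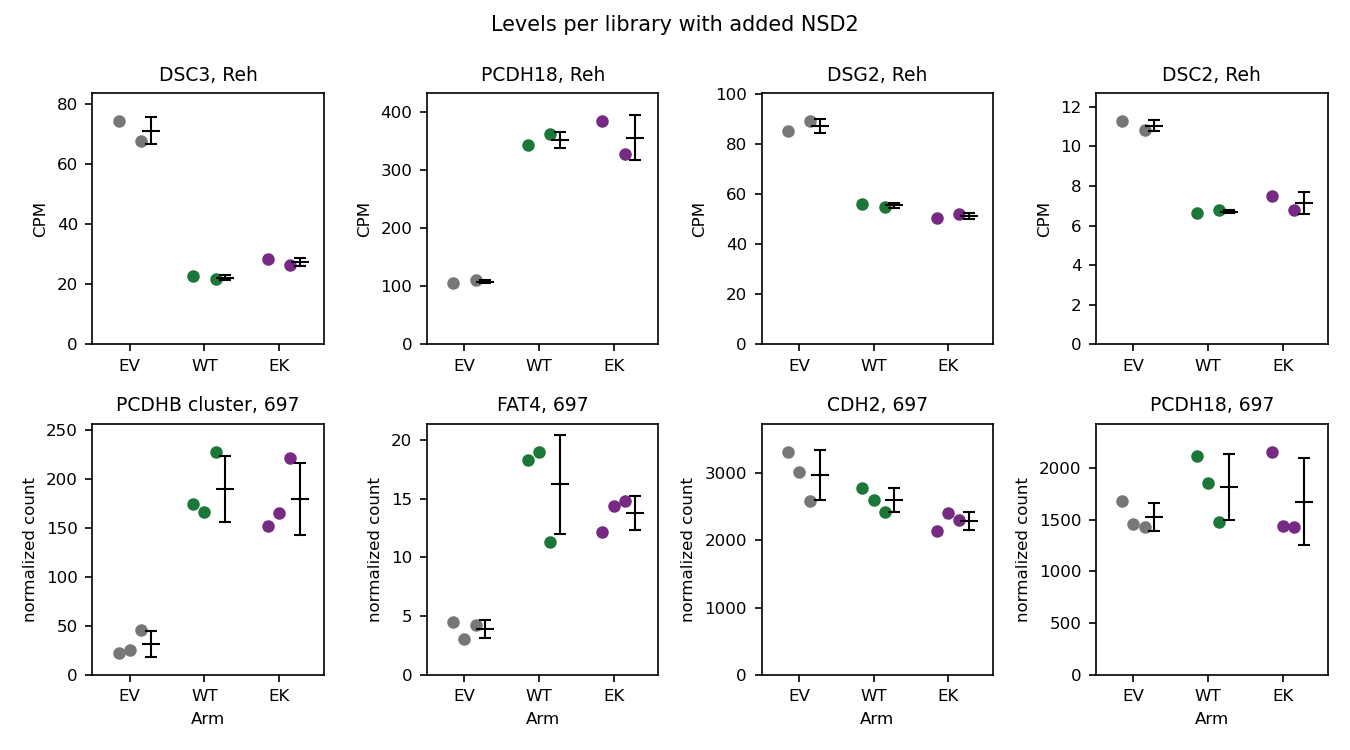
Levels per library in the lines with added NSD2, as CPM for Reh (top row, n = 2 per arm) and normalized counts for 697 (bottom row, n = 3), with mean and SD beside each arm. DSC3 drops from 67.9 to 74.3 CPM in EV to 21.8 to 28.4 in WT and EK and PCDH18 climbs from at most 110 to at least 328 in Reh, and the PCDHB cluster of 697 rises from at most 46.1 to at least 151 normalized counts.

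PCDH9, a long protocadherin gene with a role in neuronal contacts, fell in SEM and rose in RS411. In SEM it was 7.60, 7.58 and 7.82 CPM in NT, 2.92, 2.57 and 2.12 in sh2, and 2.05, 2.00 and 2.09 in sh5, among the tightest groups of any member. The falls were 1.59 in sh2 (SE 0.14, edgeR adjusted p = 5.37e-07) and 1.90 in sh5 (SE 0.14, edgeR adjusted p = 2.69e-07). In RS411 it was 0.115, 0.305 and 0.218 CPM in NT, 0.149, 0.285 and 0.189 in sh2, and 9.40, 5.54 and 19.6 in sh5. Only the sh5 libraries stood apart, with 1425 reads against 22 in NT, a rise of 5.78 ± 0.57 (edgeR, adjusted p = 0.00599), whereas sh2 overlapped NT (-0.08 ± 0.77). Dropping NT library 1 moved the adjusted p to 0.0552, with a log2FC of 5.43. PCDH9 was higher in sh5 than in sh2 in RS411 by 5.86 ± 0.56 (edgeR, adjusted p = 0.00468). In Reh it was 79.4 and 65.6 CPM in EV, 92.4 and 87.2 in WT, and 102 and 95.3 in EK, above EV without being called (0.31 ± 0.13 and 0.44 ± 0.13, edgeR adjusted p = 0.965 and 0.405).

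PCDH10, a protocadherin of the developing brain, stood out in the same RS411 libraries. It had 0, 1 and 0 reads in NT, 0 in each sh2 library, and 119, 38 and 275 reads in sh5, at 2.94, 1.02 and 6.44 CPM. PCDH10 was thus tested there through sh5 alone, where only a rise could have been called. The ratio of sh5 to NT at equal depth was 384, with a 95% interval from 68.5 to 15200 that covers counting error alone. The difference was not called against NT (edgeR, adjusted p = 0.0526), was called with the replicate block (adjusted p = 5.66e-06) and by DESeq2 (0.000135), and was called against sh2 (edgeR, adjusted p = 0.0349), where PCDH10 was at least 169-fold higher, with the floor of 3 reads over the sh2 group. In SEM, PCDH10 had 43 reads in NT, 2 in sh2 and 26 in sh5, called lower in sh2 (edgeR, adjusted p = 0.000381) with a ratio of NT to sh2 of 21.5 (95% interval 5.60 to 183), and not called in sh5 (edgeR, adjusted p = 0.25). In RCH it was 0.831, 0.943 and 1.15 CPM in NT and 0.421, 0.319 and 0.509 in sh2 (-1.23 ± 0.39, edgeR adjusted p = 0.146). In Reh it was 29 and 36.4 CPM in EV, 14.1 and 23.6 in WT, and 6.55 and 14.4 in EK (EK -1.64 ± 0.40, edgeR adjusted p = 0.29).

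**Figure D5:**
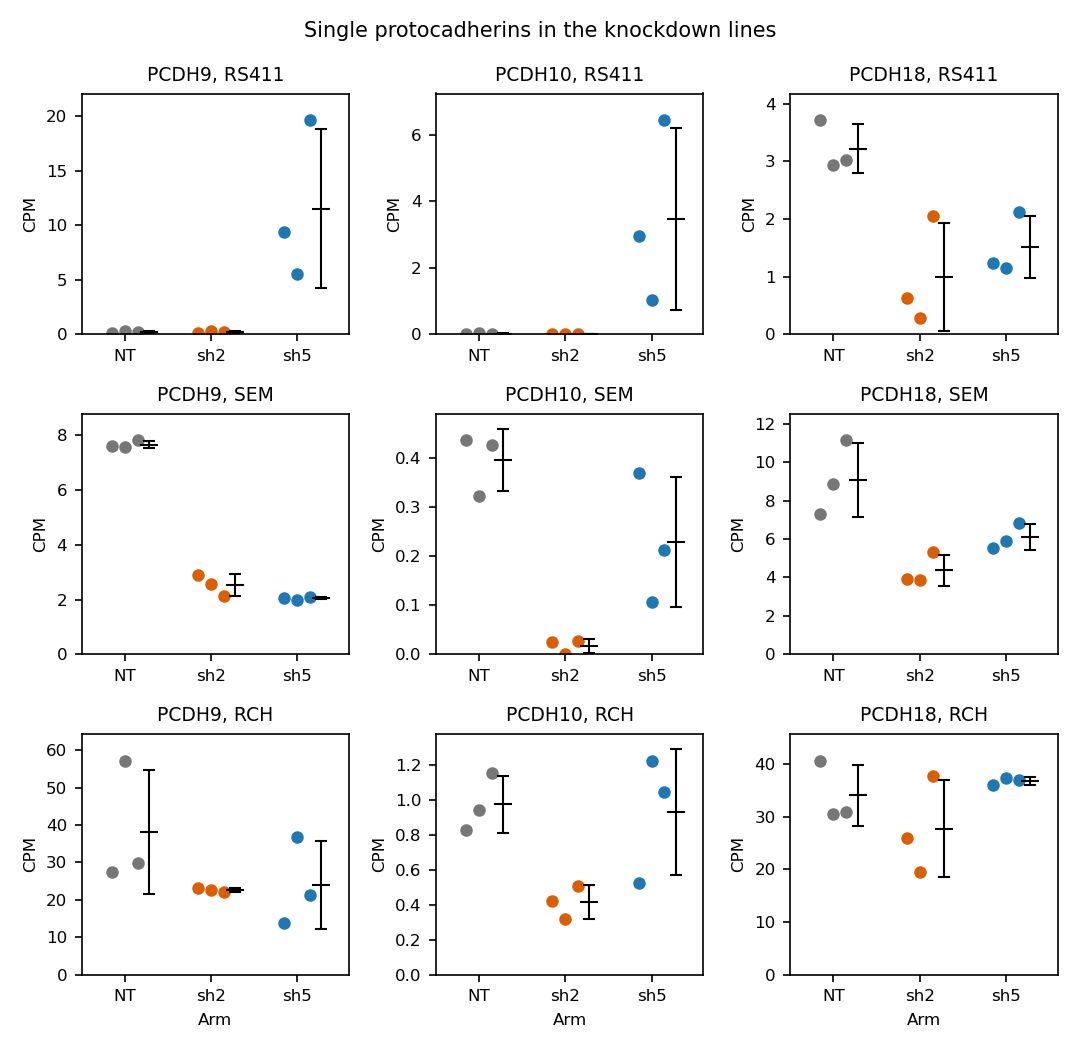
Levels of PCDH9, PCDH10 and PCDH18 (columns) in RS411, SEM and RCH (rows), in CPM from 0, 1 point per library, with mean and SD (n = 3) beside each arm. In RS411 the sh5 libraries stand at 5.54 to 19.6 CPM of PCDH9 and 1.02 to 6.44 CPM of PCDH10, above all others, while in SEM every hairpin library of PCDH9 is below NT.

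Other single protocadherins had smaller or thinly covered changes. PCDH8, also called paraxial protocadherin, was 2.76, 2.15 and 3.33 CPM in SEM NT and 4.76, 4.01 and 5.35 in sh2, a rise of 0.78 ± 0.17 (edgeR, adjusted p = 0.00302), and 3.66, 3.39 and 3.57 in sh5 (0.37 ± 0.17, edgeR adjusted p = 0.159). PCDH11X was 0.0733, 0.101 and 0.0360 CPM in RCH NT, 0.421, 0.319 and 0.4 in sh2, and at most 0.0383 in sh5. With 8, 29 and 1 reads in these arms it was not called in sh2 (2.47 ± 0.61, edgeR adjusted p = 0.0783).

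The clustered protocadherins differed by cluster. In the A cluster, reads over all libraries of a line numbered 11 in Reh, 25 in RS411, 43 in RCH, 13 in SEM and 315 in 697. In the G cluster PCDHGC3, a C-type gene at the end of the cluster, gave the largest share of reads in all 5 lines, from 30.1% in Reh to 54.9% in SEM. In SEM the G cluster was 42.0, 48.5 and 48.8 CPM in NT, 42.1, 50.9 and 45.8 in sh2, and 35.4, 36.5 and 37.0 in sh5, called lower in sh5 (-0.35 ± 0.08, edgeR adjusted p = 0.00465) and lower in sh5 than in sh2 (-0.35 ± 0.08, edgeR adjusted p = 0.00798). In RS411 it was 38.1, 39.2 and 32.5 CPM in NT and 47.4, 60.3 and 37.2 in sh2, called higher with the replicate block (0.38 ± 0.08, adjusted p = 0.00852) and not without it (edgeR, adjusted p = 0.199).

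The B cluster gave the 1 called change of 697. Its summed level was 22.3, 25.1 and 46.1 normalized counts in EV, 174, 166 and 228 in WT, and 151, 166 and 221 in EK. Every library with added NSD2 was above every EV library, by 2.62 ± 0.29 in WT and 2.54 ± 0.29 in EK (limma, adjusted p = 0.00363 and 0.00702). The call held without each library in turn, with log2FC from 2.43 to 2.93 in WT and 2.34 to 2.85 in EK. Most of the added reads lay in PCDHB3, with 22 reads in EV, 240 in WT and 223 in EK, and PCDHB2, with 25, 226 and 151. As single genes both were called, PCDHB3 at 3.33 ± 0.44 in WT and 3.41 ± 0.44 in EK (limma, adjusted p = 0.0112 and 0.01) and PCDHB2 at 3.07 ± 0.41 and 2.66 ± 0.41 (limma, adjusted p = 0.0119 and 0.0364). The B genes are close copies, so how the counting split reads among them is uncertain.

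In the other lines the B cluster was led by other genes, PCDHB13 in RS411, PCDHB14 in RCH and PCDHB9 in SEM. In Reh, PCDHB13 and PCDHB9 were nearly level (308 and 305 reads), with PCDHB13 ahead in EV and PCDHB9 ahead in WT and EK. Its mean was below that of NT in all 6 hairpin arms. In SEM it was 1.36, 1.29 and 1.63 CPM in NT, 1.07, 0.878 and 0.970 in sh2, and 0.790, 0.935 and 0.925 in sh5, called lower in sh5 (-0.69 ± 0.21, edgeR adjusted p = 0.0308) and not in sh2 (-0.55 ± 0.21, edgeR adjusted p = 0.0692). The sh5 call was lost with DESeq2 (adjusted p = 0.098), with no low-count filter (0.0869) and without NT library 3 (0.127), sh5 library 1 (0.102), sh5 library 2 (0.0681) or sh5 library 3 (0.0630). In RCH it was 4.13, 3.84 and 3.91 CPM in NT and 1.83, 1.92 and 1.89 in sh5, a tight and separate pair of groups that was not called (-1.08 ± 0.23, edgeR adjusted p = 0.292) except by DESeq2 (0.00357). In RS411 sh5 it lay at 0.817, 1.10 and 1.12 against 2.52, 1.94 and 1.46 CPM in NT, called with the replicate block (-0.98 ± 0.27, adjusted p = 0.0429) and not without it (edgeR, adjusted p = 0.174). In Reh it was 6.50 and 5.55 CPM in EV, 8 and 9.32 in WT, and 5.24 and 6.29 in EK, with no call.

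Whether RS411, RCH and SEM differed in their response was tested by the interaction of line and arm in a joint edgeR fit. For sh2, 2 of 25 members differed in edgeR, against 8.59% of all genes: DSC2 (adjusted p = 0.00891) and PCDH10 (0.0474). DSC2 had 1 read in all of RS411 and 15 in all of RCH, and PCDH10 had 1 read in RS411 NT, so a fall could not have been seen for DSC2 in RS411 and RCH or for PCDH10 in RS411. Leaving out 1 library moved the sh2 count between 0 (without RCH sh2 library 2) and 4 (without RCH NT library 1 or sh2 library 1). For sh5, 4 of 26 differed in edgeR, against 2.18% of all genes: PCDH9 (adjusted p = 7.46e-05), PCDH10 (0.000282), DSG2 (0.00398) and PCDH17 (0.0475). With a replicate block within lines the counts were 4 for sh2 and 7 for sh5. CDH2 did not pass in either (edgeR, adjusted p = 0.126 and 0.0741), nor did FAT4 (0.114 and 0.249) or PCDH18 (0.261 and 0.0734), which does not show that these genes responded alike. PCDH17, a protocadherin of synapses, had 32 reads in SEM NT and 2 in sh5, 29 in RCH NT and 28 in sh5, and 1 read in RS411 NT, where a fall could not have been seen. DSG2 had 13 reads in all of RS411, so a fall could not have been seen there either.

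Intracellular partners of the members were followed as lists. Of 16 catenins and adhesion adaptors, 12 were tested in Reh, and 2 were called higher and 0 lower in each arm. Of all genes, 0.188% were called higher in WT and 0.176% in EK. MAGI1, a junction scaffold, rose from 0.349 ± 0.229 CPM in EV to 7.27 ± 1.31 in WT and 6.96 ± 0.700 in EK (n = 2, edgeR adjusted p = 0.0222 and 0.0258). PVRL1 (nectin-1) rose from 1.81 ± 0.0161 to 6.67 ± 0.583 and 7 ± 0.641. Beta-catenin (CTNNB1), which binds classical cadherins, was 179 ± 4.13 CPM in Reh EV and 177 ± 8.87 in WT, and plakoglobin (JUP), its desmosomal relative, was 286 ± 47.1 and 269 ± 42.3, neither called. PERP, a desmosome-associated protein, fell in Reh from 25.1 ± 0.555 CPM to 11.2 ± 0.607 in WT and 10.5 ± 0.0843 in EK (edgeR, adjusted p = 0.0320 and 0.0328), 1 of 3 plaque and associated genes tested of 8. Of all genes, 0.0313% were called lower in WT and 0.0376% in EK.

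In SEM, 13 catenins and adaptors were tested, of which 2 rose and 3 fell in sh2 and 3 rose and 2 fell in sh5. As for each list in SEM, these counts stand beside 28% of all genes called in sh2 and 21.3% in sh5. MAGI1 was 23.2 ± 0.566 CPM in NT, 7.84 ± 0.420 in sh2 and 33.1 ± 0.434 in sh5 (n = 3), so it fell with sh2 (edgeR, adjusted p = 9.38e-10) and rose with sh5 (edgeR, adjusted p = 0.000104). PVRL2 (nectin-2) rose with both, from 7.06 ± 1.17 to 21.2 ± 1.62 and 18.6 ± 2.44 CPM (edgeR, adjusted p = 1.76e-07 and 1.59e-06), and with sh2 in RS411, from 2.41 ± 0.603 to 6.24 ± 1.54 (edgeR, adjusted p = 0.0223). PVRL3 (nectin-3) fell with both in SEM, by 0.47 and 0.45 on the log2 scale. CTNNB1 was 434 ± 18 CPM in SEM NT, 403 ± 6.69 in sh2 and 405 ± 9.62 in sh5, not called. Of 16 planar polarity and Hippo partners, 14 were tested in SEM: 2 rose and 8 fell in sh2 (28% of all genes called), and 2 rose and 5 fell in sh5 (21.3%). FZD3, a frizzled receptor, fell by 0.92 and 0.37 on the log2 scale. YAP1, the coactivator that the FAT and Hippo pathway restrains, fell from 2.53 ± 0.379 CPM to 0.143 ± 0.0563 in sh2 and 0.309 ± 0.167 in sh5, and TEAD1, its DNA-binding partner, from 8.60 ± 0.120 to 3.46 ± 0.303 and 3.65 ± 0.482. In RCH sh2, 2 of the 16 were called lower, FZD3 by 1.05 (edgeR, adjusted p = 0.0423) and FJX1 by 1.23 (edgeR, adjusted p = 0.0481). Of all genes, 1.37% were called there, 0.195% lower. FJX1 is related to the fly kinase that acts on Fat and Dachsous.

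Outside SEM the lists gave few calls. In RS411, 1 of the 58 list genes tested was called higher in sh2 and 3 in sh5, with 0 lower in either. Of all genes, 0.945% were called higher in sh2 and 0.461% in sh5. In RS411 sh5, MAGI1 rose from 22.1 ± 3.96 to 42.9 ± 4.50 CPM (edgeR, adjusted p = 0.00984), PRICKLE2 from 45.1 ± 3.54 to 61.1 ± 3.16 and ZEB1 from 1 read to 44 (edgeR, adjusted p = 0.0252). Of 11 genes for architecture and silencing of the clusters, all tested in SEM, 1 rose and 1 fell in each hairpin arm: DNMT3B rose by 0.82 ± 0.09 in sh2 and 0.28 ± 0.09 in sh5, and STAG1 fell by 0.25 and 0.20. Of 12 cleavage and turnover genes, 9 were tested in SEM, of which 3 rose and 2 fell in sh2 and 2 rose and 1 fell in sh5, with ADAM15 higher in both (0.60 ± 0.07 and 0.37 ± 0.07), ADAM10, the main sheddase of classical cadherins, higher in sh2 (0.30 ± 0.05) and ADAM17 lower in both (-0.17 ± 0.05 and -0.23 ± 0.05). Of the 2 plaque genes tested in SEM, PKP4 fell in sh2 (-0.41 ± 0.05). Of 10 further genes with cadherin repeats, 4 were tested in SEM, with 2 lower in sh2 and 1 higher and 1 lower in sh5: CDHR3 was lower in both (-1.01 ± 0.16 and -0.50 ± 0.16), CLSTN3 lower in sh2 (-0.40 ± 0.11) and CLSTN1 higher in sh5 (0.33 ± 0.06). In 697, limma called 0 of the 58 genes tested of these 7 lists in either arm, where 0.178% and 0.166% of all genes were called. At an unadjusted p under 0.05 there were 1 in WT and 5 in EK, beside 466 and 796 of 16292 genes tested.

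Summed markers of several other cell types stood at different levels in the SEM arms, in both directions. The 7 myeloid markers summed to 13.6 to 20.5 CPM in NT, 32.8 to 47.9 in sh2 and 41.8 to 54.9 in sh5, with ELANE and FCN1 at 0 in every SEM library. The 6 stromal markers summed to 105 to 129, 154 to 161 and 143 to 165 CPM, with LUM at 0 in all, the 6 neural markers to 271 to 296, 313 to 339 and 313 to 343, and the 9 B-lymphoid markers to 1400 to 1540, 1280 to 1300 and 1260 to 1300. The 6 erythroid and megakaryocytic markers summed to 2.81 to 4.03, 2.1 to 2.66 and 1.79 to 2.49 CPM. The 7 T and NK markers summed to 17.1 to 22.4, 12.3 to 16 and 15.9 to 21.5 CPM. Only 2 myeloid, 2 stromal and 2 neural markers had enough reads to be tested in SEM, so these sums rest on few genes. In Reh the sum of the 5 neural markers found was 79.0 to 83.7 CPM in EV, 57.9 to 60.9 in WT and 54.5 to 67.9 in EK. The part of these markers in the cadherin results was not tested.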

How the data were processed

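RNA from 42 samples (15 groups, 5 lines) was sequenced as ribosome-depleted stranded total RNA libraries. Per the submitters' processing notes, reads were trimmed with Trimmomatic, aligned to hg19 with STAR and counted per gene with featureCounts; their versions, the annotation and whether counting used strand were not given in the sources used here. The deposited tables hold raw read counts per gene for Reh, RS411, RCH and SEM. For 697 the deposited values are normalized counts, a signal the authors scaled between libraries; dividing by 1 step per library gave whole reads for 100% of values above 0 (tolerance 0.001). Raw Reh rows, which carry Ensembl identifiers, took the symbol of the deposited normalized Reh table: 29738 genes by symbol and identical reads, 6945 by identical reads alone; 3 members with 5 reads in all had no row of their own and took the recovered reads. Each of the 2 tables of Reh also had 3 columns that matched no sample, which were not used. For RS411, RCH and SEM, rows whose gene name had turned into a date held 0.214%, 0.247% and 0.230% of reads and were left out.

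Members and lists were chosen with earlier results of these data known. For the count tables, edgeR 4.0.16 (R 4.3.3) quasi-likelihood tests were run on all genes of a line with its 3 arms in 1 fit, TMM scaling and its default low-count filter by arm. For 697, limma 3.58.1 with a trend was run on log2(value + 1) of features with a mean of at least 10, so fold changes there are on that scale and understate low genes. P-values were Benjamini-Hochberg adjusted over all features of a comparison, and a feature was called when the adjusted value was under 0.05. Printed levels are CPM on TMM library sizes, and lengths are the union of a gene's exons in GENCODE 29, which is on GRCh38. Differences between knockdown lines were tested as the interaction of line and arm in 1 edgeR fit. The scripts were tested on simulated data.

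The labels give replicate numbers. Same-numbered libraries deviated together in Reh (correlations of their deviations from the arm means 0.737 to 0.794), 697 (0.504 to 0.808), RS411 (0.337 to 0.65) and SEM (0.205 to 0.628). They did not in every RCH pair (lowest 0.011). Reh has only 2 numbers, so the 2 libraries of an arm deviate by equal and opposite amounts. Alternatives were a replicate block, DESeq2 1.42.0, RLE factors, no filter, clustered protocadherins as single genes, each library left out and, for 697, other pseudocounts, minimum means and edgeR on recovered reads. Depth limits members with few reads, and intervals and floors cover counting error only. Named with values were called members, the 3 highest of each line, uncalled members with an unadjusted p under 0.01 and up to 2 called genes per list and comparison, with other members for their level; CTNNB1, JUP, ZEB2, SNAI3 and ADAM17 in SEM sh2 were chosen after their values were seen.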

Additional observations from a re-analysis of the deposited data

Results flagged for a closer look

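The response to a hairpin differed between RS411, RCH and SEM for 2 members in sh2 and 4 in sh5, by the interaction of line and arm in edgeR. Of all genes, 8.59% differed in sh2 and 2.18% in sh5, so the sh2 share, 2 of 25 members, is near that of all genes. With 1 library left out the sh2 count ran from 0 to 4. For sh2 the adjusted p of the difference was 0.00891 for DSC2 and 0.0474 for PCDH10. For sh5 it was 7.46e-05 for PCDH9, 0.000282 for PCDH10, 0.00398 for DSG2 and 0.0475 for PCDH17. DSC2 had 362 reads in SEM NT, against 15 in all RCH libraries and 1 in all RS411 libraries together, where a fall could not have been seen. Nor could a fall of DSG2 in RS411, with 13 reads in all libraries together. PCDH9 in sh5 stood at 5.54 to 19.6 CPM in RS411, above NT, and at 2.00 to 2.09 CPM in SEM, below NT.

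CDH24 lay on opposite sides of the empty vector in the 2 lines with added NSD2, without overlap in either. Its log2 fold change in WT was 0.18 ± 0.16 in Reh and -0.59 in 697, and in EK it was 0.3 ± 0.16 in Reh and -0.49 in 697. FAT4 did the same in EK, at -0.34 ± 0.18 in Reh and 1.61 in 697, where it had 103 reads in all libraries together. In Reh, with 2 libraries per arm, the unadjusted edgeR p was 0.308 and 0.102 for CDH24 in WT and EK and 0.102 for FAT4. None of these was called within its line by edgeR or limma as fitted by arm, and the differences between Reh and 697 were not tested. How many of all genes lay apart from EV in opposite directions in the 2 lines was not counted. These cases therefore have no background, and in Reh the side on which they lie is uncertain.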

How the results depend on the processing

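SEM counts (12, 11 and 9 members in sh2, sh5 and sh5 against sh2) stayed within 1.5 times of these under every alternative, as did those of 697. Each member called against EV or NT, in any line, was refitted under each alternative. No log2 fold change changed sign in these refits, of which 299 kept the call and 32 lost it. Counts elsewhere moved, and the cause was not tested. The share of all genes called was not counted under the alternatives. A rise among members therefore cannot be told from a rise over all genes. With the replicate block, Reh gave 9 members in WT, 11 in EK and 2 in EK against WT (PCDH10 and DCHS1), RS411 gave 3, 3 and 4 in sh2, sh5 and sh5 against sh2, RCH gave 2 in sh2 and 1 in sh5 against sh2, and the tests between lines gave 4 for sh2 and 7 for sh5. Same-numbered Reh libraries deviated together (correlations 0.737 to 0.794), though with only 2 numbers per arm. Those of RCH did not all deviate together, so there the number may not pair them. DESeq2 gave 5 in Reh EK, 1 and 2 in RS411 sh2 and sh5, 2, 1 and 1 in RCH sh2, sh5 and sh5 against sh2, and 4 and 7 between lines. With no filter on low counts the numbers were 6, 8 and 1 in Reh WT, EK and EK against WT, 3, 3 and 6 in RS411, 6 and 6 in RCH sh2 and sh5 against sh2, and 10 and 11 between lines.

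Leaving out 1 library gave 0 to 1 in Reh WT and in Reh EK, against 2 in each with all libraries (0 without EV library 1 or WT library 2 in WT, and 0 without EV library 1, EV library 2 or EK library 2 in EK), 0 to 3 in RS411 sh2 (3 without sh2 library 3, 0 without NT library 1), 0 to 2 in RS411 sh5 (0 without NT library 1, 2 without sh5 library 2), 1 to 5 in RS411 sh5 against sh2 (5 without sh2 library 3, 1 without sh2 library 1), 0 to 2 in RCH sh2 (2 without sh2 library 3, 1 without NT library 1, 0 without any other), 11 to 13, 9 to 12 and 8 to 9 in SEM, and 0 to 4 for sh2 (0 without RCH sh2 library 2, 4 without NT library 1 or sh2 library 1 of RCH, 3 without RS411 sh2 library 3, 1 without most others) and 3 to 4 for sh5 between lines. It gave 1 in both 697 comparisons against EV, and 0 in EK against WT of both lines, in RCH sh5 and in RCH sh5 against sh2.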
